A study of Mus musculus with 22 samples.

Results

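The expression levels described here are those of LT-HSCs, long-term hematopoietic stem cells, of 6 control mice aged 18 months, which were 6 of the 22 samples of the study. The arrays were chosen by their labels alone, as the old samples with floxed Ahr. These were female C57BL/6J mice with both Ahr alleles floxed (Ahr fx/fx, called AHRFX) and no Vav1-Cre transgene, so that nothing deleted Ahr, the gene of the aryl hydrocarbon receptor. The cell type label of all 22 samples reads Ahr-KO, while the title and genotype labels of these 6 name floxed Ahr, and the genotype label was followed. The study set such mice against mice that lack AHR in the blood system, at 2 ages. From the marrow of each animal, cells with lineage markers were removed, the rest were stained with antibodies to CD150, CD48, CD34, cKit and Sca-1, and cells without CD48 and with CD150 on their surface were sorted (the SLAM gate). The study also describes the sorted cells as LSK cells, which carry Sca-1 and cKit but no lineage markers, and as negative for CD34. RNA of each animal was amplified separately and hybridized to its own array, a Mouse Gene 2.0 ST chip, so the 6 arrays are 6 animals.

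LT-HSCs are the multipotent cells of the marrow that renew themselves for life and give rise to all blood lineages. In young animals they divide rarely and are kept by a network of transcription factors, by the stem cell factor receptor Kit and by signals from neighboring marrow cells. With age their number in the marrow grows, and genes of the megakaryocyte lineage and of myeloid cells are known to gain over lymphoid genes in them.

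Signals were averaged over the 6 arrays and genes were ranked by that mean. A background limit was set at the 95th percentile of 1379 probe sets for odorant and pheromone receptors (Olfr, Vmn1r and Vmn2r), which are used by sensory neurons, and lay at a signal of 27.3. Genes in the top 10% by mean signal, from 307 up, are called bright, those between the limit and 307 moderate, and the rest at or under the limit. Values after ± are SD over 6 animals throughout (n = 6), in the linear signal units of the array. A probe set's signal depends on how well its probes bind as well as on the amount of RNA, so bright, highest and the other ranks given below order signals on these arrays and not amounts of RNA. In sorted bulk cells, fewer cells of a type and less RNA per cell cannot be told apart.

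All 6 arrays resembled each other, with correlations of 0.951 to 0.98 on the log2 scale across probe sets, which are not independent. Arrays 1 and 2 stood apart from the rest. They correlated at 0.965 with each other and at 0.951 to 0.958 with arrays 3 to 6, which correlated at 0.962 to 0.98 among themselves. Genes of granulocytes, monocytes, basophils and eosinophils had lower signals on arrays 1 and 2, and genes of megakaryocytes higher ones, as given below with each group. Means without arrays 1 and 2 are given for the named genes that crossed 27.3 or 307 or moved by over 1.5 times without them, apart from those named for their place at a border, and for some others. The arrays' own limits lay between 25.2 and 31.3, and 52.4% to 59.0% of genes were above them.

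The markers of the label had signals above the limit in all 6 animals. Kit, the receptor used in the sort, was bright (lowest 784, median 926, highest 1197, mean 937 ± 147). So were Meis1, a homeobox factor of stem cell self-renewal (lowest 388, median 544, highest 627, mean 512 ± 101), and Mecom, a zinc finger factor needed to keep HSCs (lowest 229, median 396, highest 419, mean 362 ± 75.3). The second Mecom probe set had a mean of 73.2. Procr, the protein C receptor (EPCR) found on HSCs, was moderate (lowest 105, median 161, highest 299, mean 176 ± 67), and so was Slamf1, which encodes the CD150 of the gate (lowest 72, median 114, highest 143, mean 114 ± 24.8). All 5 were above the array's own limit on every array, but the means of Procr and Slamf1 lay under that of the highest olfactory receptor, Olfr796 (194). Slamf1 and Mecom were lowest on array 5, at 72 and 229.

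Genes of proteins that the gate or the usual definition of LT-HSCs leaves out also had signal. Cd34, whose protein is absent from the sorted cells by the study's description, was bright (lowest 911, median 1200.3, highest 1358, mean 1170.2 ± 171). Cd48, whose protein the sort selected against, was bright on average, with signals of 206, 168, 512, 477, 428 and 478 on arrays 1 to 6, so that arrays 1 and 2 lay under the bright border and the others above it. Flt3, a receptor of multipotent and lymphoid progenitors, was moderate (lowest 35.6, median 59.2, highest 172, mean 80.8 ± 49.9) and highest on array 5. The array measures RNA and the gate surface protein. Ly6a, the gene of Sca-1, is not analysed here.

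**Figure D1:**
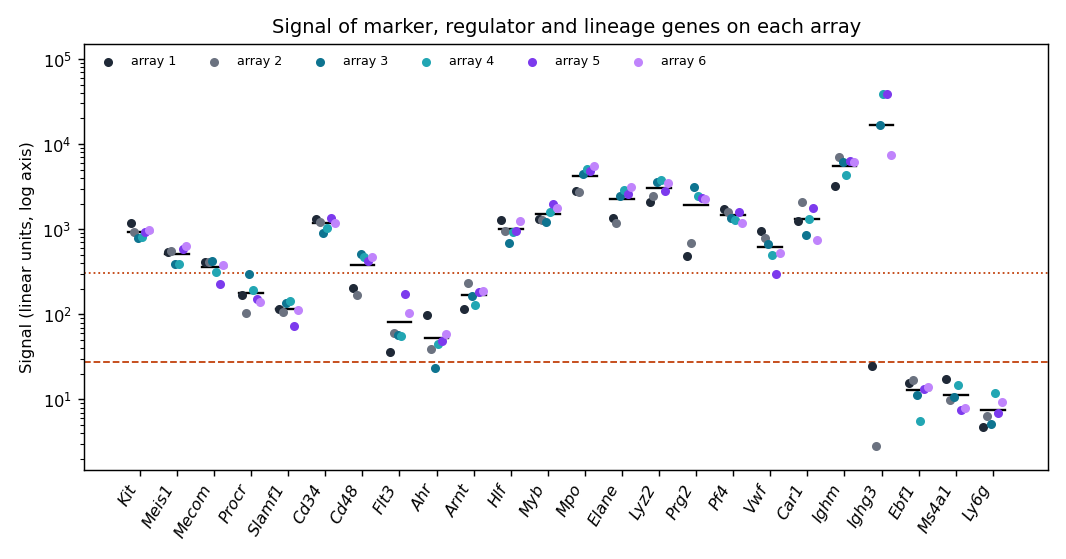
Signal of 24 named genes on each of the 6 arrays, on a log axis; points are animals, black bars are means, the dashed line is the limit of 27.3 and the dotted line the lowest bright signal of 307. Kit, Meis1 and Cd34 lie above the dotted line in all animals, Ebf1, Ms4a1 and Ly6g under the limit in all, and Ighg3 spans 2.8 to 38557.6.

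Over all 22025 genes measured, 2203 were bright (10%, by definition), 10508 moderate (47.7%) and 9314 at or under the limit (42.3%), so that 12711 (57.7%) lay above it. On single arrays, 9940 genes (45.1%) passed the array's own limit in all 6 animals and 7327 (33.3%) in none. Bright genes held 61.1% of the summed signal, moderate genes 34.9% and the rest 4.04%. The top 10% held largely the same genes in each animal, since 1538 of the 2203 bright genes (69.8%) were in it on every array. The bright class began at Mrps11 (307 ± 83.8) and Hars (307 ± 58.2), with Ces2g (307 ± 124) and Ppp6r1 (306 ± 95.3) just outside. The limit passed between Hoxb9 (27.3 ± 17.2) and Sgtb (27.3 ± 6.85) above and Clec18a (27.3 ± 2.46) and Atp6v1b1 (27.3 ± 11.4) below. These differences were far smaller than the spread between animals.

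Genes best known from other tissues were used to gauge the error of these classes. Of 33 genes of liver, muscle, nerve, skin and gut, 0 were bright, but 13 (39.4%) lay above the limit, among them Mbp, a myelin protein whose gene also has transcripts in blood cells (215 ± 43.1), Apob, a lipoprotein of liver and gut (153 ± 37.2), and Alb, the albumin of liver (36.2 ± 7.04). Of 37 transcription factors of other tissues, 0 were bright and 15 (40.5%) above the limit, led by Sox9, a factor of cartilage (179 ± 24). Of 35 bitter taste receptors 0 passed the limit (2 without arrays 1 and 2). Of 1086 olfactory receptors 61 (5.62%) passed it, up to Olfr796 (194 ± 31.8). The limit was set on these and the pheromone receptors, so that share was largely fixed in advance and does not gauge the error. With 13 of the 33 tissue genes and 15 of the 37 factors above the limit, a moderate signal alone does not show expression. The bright class, at least 11.2-fold over the limit, is the firmer one. A stricter limit of 67.5, the 99th percentile of the sensory receptors, left 3 of the 33 tissue genes and 3 of the 37 factors above it.

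**Figure D2:**
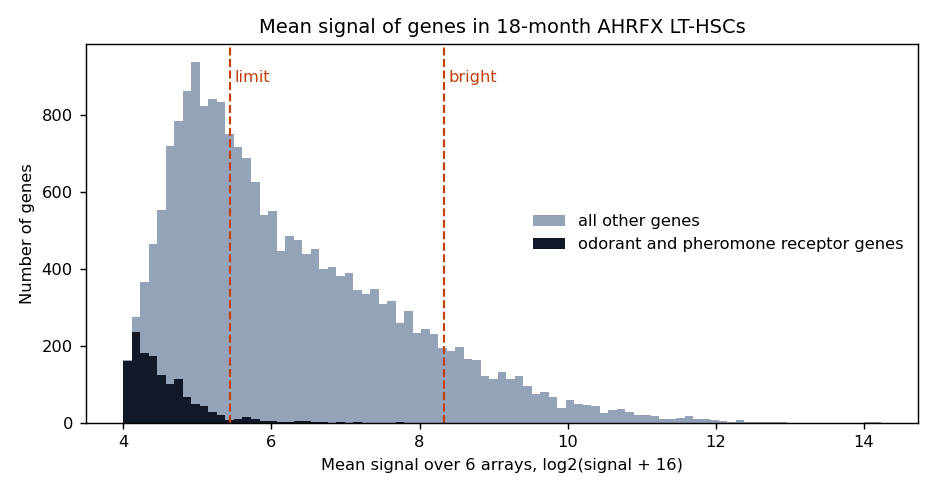
Number of genes (vertical axis) by mean signal over the 6 arrays on the log2(signal + 16) scale (horizontal axis), with the odorant and pheromone receptor genes drawn over all other genes. Dashed lines mark the limit of 27.3 and the lowest bright signal of 307; the receptor genes crowd at the low end and none is bright.

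Most genes of the machinery of protein synthesis were bright, where 10% of all genes were. Of 57 cytosolic ribosomal protein genes 47 were bright, 6 moderate and 4 at or under the limit, and 14 of the 30 genes with the highest mean signal were among them, such as Rplp1 (7309 ± 964), Rpl28 (6462 ± 458) and Rps9 (4857 ± 177). Many ribosomal proteins have near-identical pseudogenes that share their probes, so their signals are uncertain. Of 31 translation factors 28 were bright and 0 under the limit, among them Eef1a1 and Eef2, which carry the ribosome along the message (3487 ± 289 and 3567 ± 214), and the poly(A)-binding protein Pabpc1 (4149 ± 252). The translation factors varied little, with a median SD of 0.17 on the log2 scale against 0.25 over bright genes.

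Respiration, protein turnover and RNA splicing were bright as well. Of 69 subunits of oxidative phosphorylation, the chain that makes ATP in mitochondria, 62 were bright and 1 under the limit. The proteasome had 31 of 38 subunits bright, and hnRNP and SR splicing factors 34 of 37. Of 71 mitochondrial ribosomal proteins 21 were bright and 47 moderate. Genes of glycolysis were mixed, with 8 of 25 bright, Pkm (1884 ± 134) and Gapdh (3159.8 ± 964) among them, and Eno2, the neuronal enolase, under the limit (15.8 ± 7.56). Gapdh lay between 3506 and 3938 on arrays 1 to 4 and at 1944 and 1916 on arrays 5 and 6. A probe set shared by Gapdh and Gm12070 was also low there, at 1852 and 1838. Another probe set shared by both lay between 2812 and 3223 on all 6 arrays, so the drop depended on the probe set. Of 23 genes of the tricarboxylic acid cycle and fatty acid oxidation 10 were bright, with the malate dehydrogenase Mdh2 highest (3059 ± 394), and Ppargc1a, a coactivator of mitochondrial biogenesis, was under the limit (19.1 ± 7.31).

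Chaperones and protection against oxidants completed the housekeeping set. Of 25 chaperones 21 were bright, led by the constitutive Hspa8 (4658 ± 209.9), while the heat-inducible Hspa1a (5.77 ± 2.43) and Hspa1b (15.2 ± 5.55) were at or under the limit in all 6 animals. Of 29 antioxidant and iron proteins 17 were bright and 0 under the limit, with glutathione peroxidase Gpx1 (4532 ± 167), the ferritin heavy chain Fth1 (2847 ± 313), superoxide dismutase Sod1 (2247 ± 135) and the metallothioneins Mt1 and Mt2 (1593 ± 377 and 1300.0 ± 286). The cytoskeleton had 29 of 36 genes bright, Tuba1b highest (5076 ± 473). Of 20 genes of antigen presentation 10 were bright and 0 under the limit, with B2m, the light chain of class I molecules, the third brightest of all genes (lowest 6972, median 7247, highest 8062, mean 7385 ± 396).

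**Figure D3:**
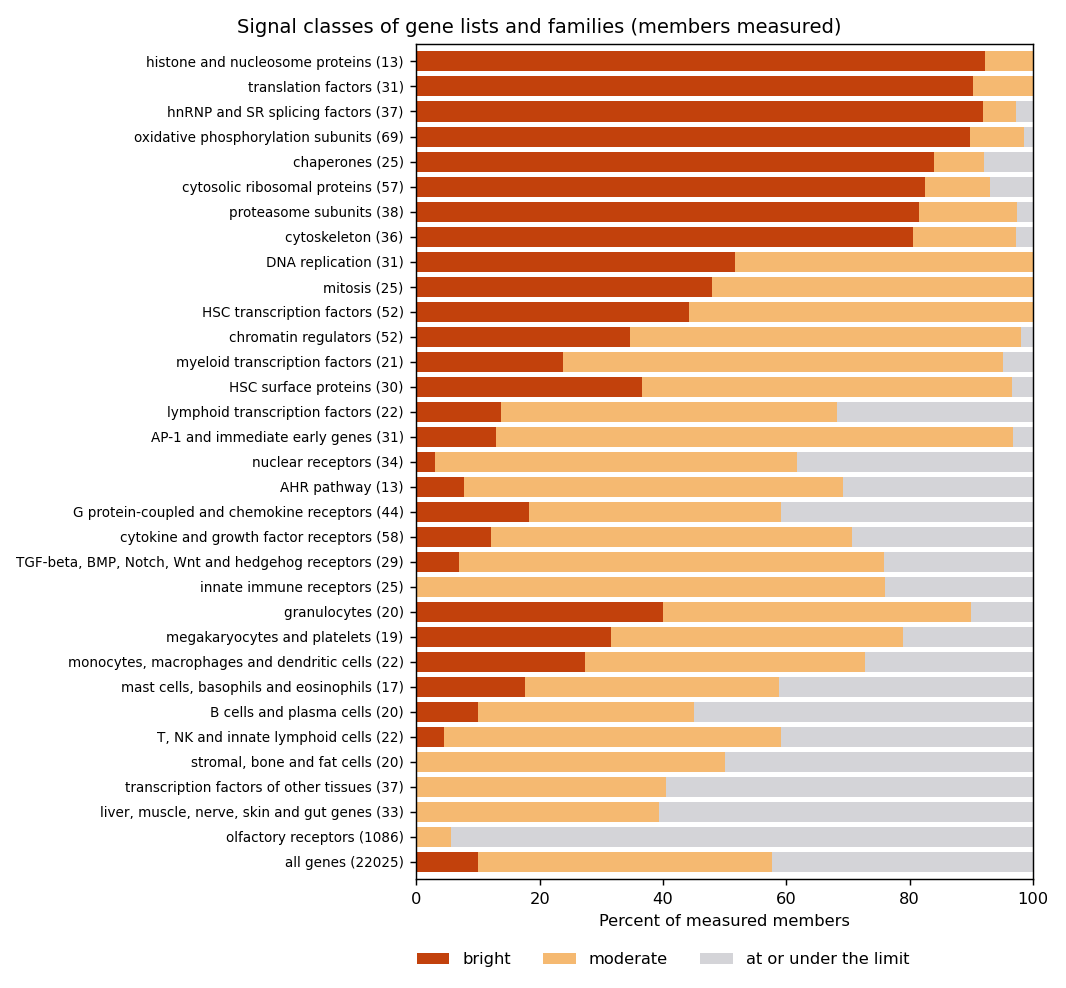
Percent of measured members (horizontal axis) that were bright, moderate or at or under the limit, for 32 gene lists and families and for all genes, with the number measured in brackets. Housekeeping lists are mostly bright, lists of other tissues hold no bright gene, and lists of blood lineages lie between.

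The promoters of bright genes were rich in CpG, the dinucleotide that marks the start sites of most widely used genes. RefSeq promoter windows of 300 bases (250 before and 50 after the start, build GRCm38.p6) were found for 84.3% of the bright protein-coding genes, 81.1% of the moderate and 80.05% of those under the limit. The ratio of observed to expected CpG had a median of 0.80 in the 1782 bright genes, 0.72 in 7834 moderate genes and 0.25 in 5725 genes under the limit. It was over 0.6 in 78.0%, 64.8% and 20.2% of them. The letters TATAAA, searched on both strands, were present in the window of 7.86%, 7.29% and 22.1% of these genes and in 13.6% of all 32851 start sites in the table. The base composition of genes and of array probes go together, and the part of the probes in these differences was not tested.

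Bright genes of blood granules did not share that CpG content. All 20 granulocyte genes are described below, 8 of them bright, and of the 19 with a promoter 0 had a ratio over 0.6, with a median of 0.16 and TATAAA in 7. Genes of mast cells, basophils and eosinophils had a median of 0.13, with 3 of 17 bright. In contrast, splicing factors had a median of 1.01 and chromatin regulators 0.84. Antigen presentation, with 10 of 20 bright, had a median of 0.38. The last 150 bases before the start are shown for 5 bright genes and for Olfr782, the olfactory receptor nearest to the median signal of its family, to make this difference visible, with every CG in capitals (RefSeq, GRCm38.p6, 5′ to 3′ toward the start).
Rpl28, ribosomal protein (chr7:4792815-4792964, plus strand): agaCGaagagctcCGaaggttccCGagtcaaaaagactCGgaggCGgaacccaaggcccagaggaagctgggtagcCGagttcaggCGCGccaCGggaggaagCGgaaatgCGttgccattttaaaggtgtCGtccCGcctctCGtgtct
Cdk1, mitotic kinase (chr10:69352913-69353062, minus strand): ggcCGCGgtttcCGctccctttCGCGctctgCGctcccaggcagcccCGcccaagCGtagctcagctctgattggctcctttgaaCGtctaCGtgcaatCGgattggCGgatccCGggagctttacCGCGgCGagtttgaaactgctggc
Meis1, HSC homeobox factor (chr11:19018970-19019119, minus strand): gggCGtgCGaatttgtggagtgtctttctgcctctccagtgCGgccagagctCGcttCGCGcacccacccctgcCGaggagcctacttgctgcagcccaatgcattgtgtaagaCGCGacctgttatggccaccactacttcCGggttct
Mpo, myeloperoxidase of granules (chr11:87793634-87793783, plus strand): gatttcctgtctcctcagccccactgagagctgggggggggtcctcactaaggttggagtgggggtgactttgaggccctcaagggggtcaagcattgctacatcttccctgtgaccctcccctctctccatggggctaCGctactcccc
Elane, neutrophil elastase (chr10:79886162-79886311, plus strand): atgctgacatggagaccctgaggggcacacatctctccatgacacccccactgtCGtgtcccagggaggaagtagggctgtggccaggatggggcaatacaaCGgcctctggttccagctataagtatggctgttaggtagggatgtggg
Olfr782, olfactory receptor (chr10:129350415-129350564, plus strand): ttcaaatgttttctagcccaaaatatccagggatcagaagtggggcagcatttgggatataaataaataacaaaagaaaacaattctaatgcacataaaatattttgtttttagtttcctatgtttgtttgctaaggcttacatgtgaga
These stretches held 14 CG in Rpl28, 16 in Cdk1 and 10 in Meis1, against 1 in Mpo, 2 in Elane and 0 in Olfr782. The mean signals were 6462, 545, 512, 4233, 2271 and 5.63 in the same order, so that both granule genes were bright with few CG.

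**Figure D4:**
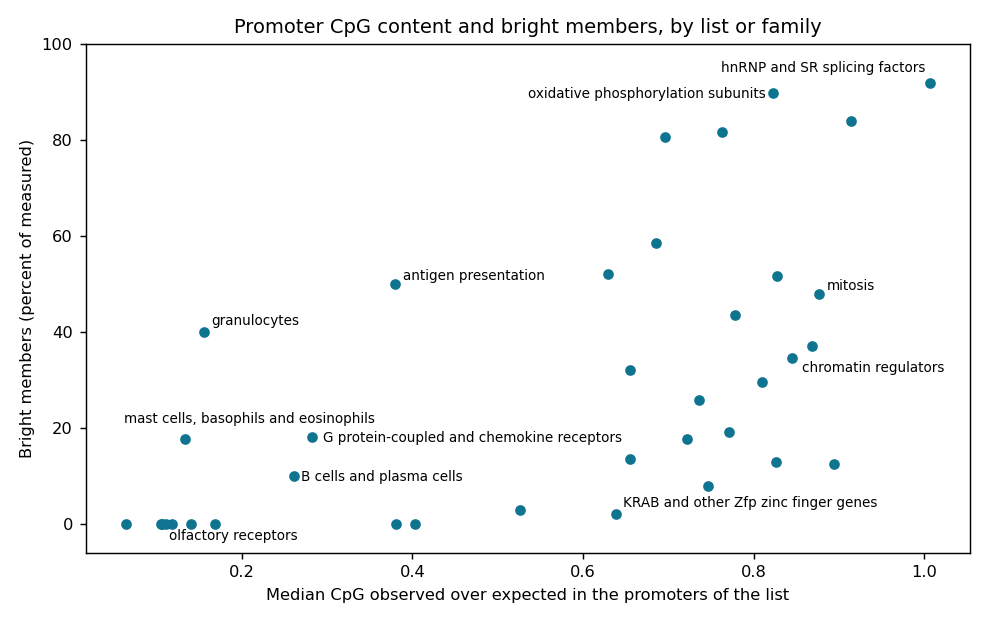
Median ratio of observed to expected CpG in the promoters of a list or family (horizontal axis) against the percent of its measured members that were bright (vertical axis), for 37 lists and families with promoters for at least 80% of members. Lists of the cell's basic machinery lie at the upper right, sensory receptors at the lower left, and granulocyte genes at 40% bright with a median ratio of 0.16.

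Transcription factors and related regulators of HSCs were all above the limit. Of 52 measured, 23 were bright (44.2%, where 10% of all genes were) and 29 moderate. Myb, a factor of progenitor growth, was bright (lowest 1223, median 1465, highest 1959.6, mean 1528 ± 300.1), as were Spi1, which encodes the myeloid factor PU.1 (lowest 774, median 1206, highest 1833, mean 1237 ± 378), and Hlf, a factor typical of HSCs (lowest 684, median 955, highest 1272, mean 1005 ± 219). The RNA-binding regulator Msi2 (1307 ± 266), Fli1 (846 ± 175), Gfi1b (627 ± 125) and Ikzf1, the lymphoid factor Ikaros (534 ± 62.3), were bright too. The Hox genes were moderate at most: of 36 none was bright, 23 were moderate and 13 under the limit, with Hoxa9 highest (188 ± 43.3). Their share above the limit was 63.9%, against 57.7% of all genes.

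Factors of single lineages were unevenly placed. Of 21 myeloid factors 5 were bright (23.8%, against 10% of all genes), among them Cebpb (747 ± 223), Cebpd (367 ± 94.4) and Irf8, which directs monocyte and dendritic cell fate. Irf8 had signals of 277, 371, 974, 1107, 956 and 942 on arrays 1 to 6, low on arrays 1 and 2 (mean 995 without them). Of 10 erythroid and megakaryocyte factors 3 were bright (30%, against 10% of all genes). Gata1 (159.7 ± 94.4) and Klf1 (123 ± 47.3), which drive red cell genes, were moderate, both highest on array 2 (166, 341, 86.6, 129.8, 147 and 88.1 for Gata1). Of 22 lymphoid factors 3 were bright (13.6%, against 10% of all genes), the broadly used Foxp1 (452 ± 48), Tcf3 (378 ± 60.8) and Tcf4 (354 ± 43.1). Another 7 were under the limit, among them the B cell factors Ebf1 (12.8 ± 3.99) and Pax5 (23.3 ± 3.92) and the T cell factor Bcl11b (27 ± 7.06). Gata3, used by T cells and some HSCs, was moderate (125 ± 95.5) and was highest on array 2, at 306 (mean 72.6 without arrays 1 and 2).

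Regulators of chromatin and of the acute response were broadly measured. Of 52 chromatin regulators 18 were bright (34.6%, against 10% of all genes) and 1, Dnmt3l, a germ cell cofactor of DNA methylation, was under the limit (11.2 ± 4.09). The cohesin subunit Rad21 (1787 ± 247), the remodeller Chd4 (1025 ± 136) and the maintenance methyltransferase Dnmt1 (978 ± 274) were the highest. Of 31 AP-1 and immediate early genes 4 were bright (12.9%, against 10% of all genes) and 26 moderate. The RNA-decay factor Zfp36l2 was highest (2304 ± 343), and Fosb was under the limit (17.8 ± 8.91). Of 34 nuclear receptors 21 lay above the limit (61.8%, against 57.7% of all genes). Of the 34, 1, Nr2c2, was bright (313 ± 72), close to the border and moderate when array 5 or 6 was left out. Another 20 were moderate, such as the glucocorticoid receptor Nr3c1 (211 ± 28.1), and 13 were under the limit, the estrogen receptor Esr2 (18.7 ± 7.94) and the fat cell factor Pparg (13.7 ± 7.25) among them.

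The AHR pathway, the subject of the study, had 1 bright gene of 13 measured in these control cells (7.69%, against 10% of all genes), and 9 lay above the limit (69.2%, against 57.7%). The median signal of the 13 was 38.4, and that of all genes 36.2. AHR is a ligand-activated factor that pairs with ARNT and induces cytochrome P450 enzymes and its own repressor. Ahr had signals of 97.2, 39.6, 23.6, 45.4, 48 and 58.2 on arrays 1 to 6 (mean 52 ± 24.9), above the array's own limit in 5 of 6 animals and highest on array 1. Arnt, its partner, was moderate (lowest 117, median 172, highest 233, mean 169 ± 42.1). The cytosolic chaperone Ptges3 (p23) was the only bright gene of the 13 measured (1085 ± 141), and Hif1a, whose protein also pairs with ARNT, was moderate (172 ± 21.6).

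The known targets of AHR were near the limit. Tiparp (56.9 ± 16.8) and the quinone reductase Nqo1 (48.9 ± 22.8) were moderate and above the limit in 5 of 6 animals, Cyp1b1 (30.9 ± 5.75) in 4 and the repressor Ahrr (28.3 ± 1.64) in 3. Scin, which encodes the actin-severing protein scinderin, had signals of 17.2, 14.8, 19.3, 132, 20.1 and 27.2, so its mean above the limit came from array 4 alone. Cyp1a1 (lowest 7.4, median 11.8, highest 28.8, mean 14.3 ± 7.69), Cyp1a2 (10.6 ± 3.04), Aldh3a1 (15 ± 3.26) and Arnt2 (19.7 ± 5.26) were at or under the limit. In all, 1 gene was bright, 8 moderate and 4 under the limit, and 3 of the 13 passed the array's own limit in all 6 animals, as did 45.1% of all genes. Of the 8 moderate ones 6 lay under the stricter limit of 67.5. Of the 72 cytochrome P450 genes of families 1 to 4, 0 were bright and 56 under the limit.

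Receptors for cytokines and growth factors were a mixed group, with 7 of 58 bright (12.1%, against 10% of all genes), 34 moderate and 17 under the limit. Of the 58, 70.7% lay above the limit, against 57.7% of all genes. The bright ones were the interferon receptor chains Ifnar2 (lowest 647, median 894, highest 1003, mean 878 ± 137) and Ifngr1 (lowest 401, median 726, highest 883, mean 666 ± 186), Il17ra (666 ± 131), the insulin-like growth factor receptor Igf1r (425 ± 63.9), Il6st (373 ± 142), the signal chain of the interleukin 6 family, Il6ra, and Tnfrsf1a, a receptor of tumor necrosis factor (311 ± 27.9, and 303 without arrays 1 and 2, under the bright border), which was named to complete the count. Il6ra and Il6st differed between animals, with signals of 79.3, 135, 614, 609, 326 and 449 and of 197, 200.4, 448, 456, 398 and 537 on arrays 1 to 6, and without arrays 1 and 2 their means were 499.7 and 459.7. Csf1r, the monocyte growth factor receptor, was moderate (256 ± 103), but over the bright border without arrays 1 and 2 (313). Among the 17 under the limit were Il5ra of eosinophils (8.27 ± 6.22), Lepr (15.3 ± 9.1) and Pdgfra (3.53 ± 2.3).

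Of 29 receptors for TGF-beta, BMP, Notch, Wnt and hedgehog ligands 2 were bright (6.9%, against 10% of all genes), Notch2 (455 ± 71) and Fzd1 (314 ± 71). Another 20 were moderate, Bmpr2 (237 ± 23.1) and Notch1 (106 ± 24.5) among them. Fzd1 lay close to the bright border and fell to moderate when array 3 or 4 was left out. Of 44 G protein-coupled and chemokine receptors 8 were bright (18.2%), 18 moderate and 18 under the limit. The share above the limit, 59.1%, was close to that of all genes (57.7%). The adhesion receptor Adgrl4 (lowest 812, median 1265, highest 1639.8, mean 1252 ± 286) and Cxcr4, the receptor that holds HSCs in the niche (lowest 264, median 613, highest 934, mean 623 ± 239.6), were among the bright ones. So were the calcitonin-like receptor Calcrl (608 ± 128), Gpr171 (631 ± 109.7), the sphingosine phosphate receptor S1pr4 (421 ± 54.6), and Ccr2 (1385 ± 529.9) and Cx3cr1 (403 ± 175), both receptors of monocytes. Ackr3, the other CXCL12 receptor, was under the limit (14.1 ± 4.11). None of 25 innate immune receptors and adaptors was bright, with 19 moderate, Sting1 (216 ± 45.6) and Tlr4 (171 ± 20.9) the highest, and Tlr3 under the limit (6.75 ± 4.05).

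Surface proteins of HSCs and adhesion molecules had larger shares above the limit than all genes (96.7% and 78.1%, against 57.7%). Of 30 HSC surface proteins 11 were bright (36.7%, against 10% of all genes) and 1, the receptor kinase Ephb4, was under the limit (20.7 ± 7.2). Adgrg1 (GPR56), an adhesion receptor of HSCs, was bright in all animals (lowest 2096, median 2387, highest 2866, mean 2429 ± 304). The tetraspanins Cd63 (1810.1 ± 266) and Cd9 (1050.0 ± 351), endoglin (Eng, 686 ± 157) and the interferon-induced Ifitm3 (2852 ± 219.9) and Ifitm1 (654 ± 142) were bright. Of 32 adhesion molecules 6 were bright (18.8%), among them Cd47, the signal that protects cells from phagocytosis (1526 ± 199), the hyaluronan receptor Cd44 (1250.4 ± 301) and the selectin ligand Selplg (1205 ± 285).

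Of 65 ligands and secreted factors 6 were bright, 32 moderate and 27 under the limit. These shares were close to those of all genes (9.23% bright, against 10%, and 58.5% above the limit, against 57.7%). The bright ones were Pf4 (CXCL4, lowest 1168, median 1471, highest 1737, mean 1457 ± 219.7) and Tgfb1 (lowest 1019.5, median 1163, highest 1497, mean 1202 ± 160.3), both known to hold HSCs in quiescence, Angpt1, a ligand of the receptor Tek (lowest 592, median 810.2, highest 959.5, mean 791 ± 126), the chemokines Ccl9 (884 ± 347) and Ccl5 (341 ± 187), and Dkk1, a Wnt inhibitor (344 ± 22.4). Dkk1 was one of the steadiest, at 318 to 375 over the 6 animals. Kitl, the ligand of Kit made by niche cells, was under the limit (8.27 ± 2.9), as was Epo, the kidney hormone of red cell growth (19.6 ± 6.94). Cxcl12, the niche ligand of Cxcr4, was moderate (209 ± 66.2). Its signals were 86, 213, 220.1, 277, 254 and 204, lowest on array 1.

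Genes of mitosis were above the limit in every animal. Of 25 mitosis genes 12 were bright (48%, against 10% of all genes) and 13 moderate, and all passed the array's own limit on all 6 arrays. Mki67, the proliferation antigen (lowest 743, median 1029, highest 1241, mean 1001 ± 211), Top2a, the topoisomerase of chromosome condensation (lowest 769, median 1002, highest 1171, mean 999.6 ± 139), and Ccnb2, a mitotic cyclin (lowest 821, median 1114, highest 1269, mean 1085 ± 169.7), were bright in each animal. Of 31 replication genes 16 were bright and 0 under the limit, led by the sliding clamp Pcna (lowest 1693, median 1754, highest 2162, mean 1813 ± 178), and of 17 cyclins and their kinases 7 were bright. Cdk1 varied little (lowest 517, median 543, highest 573, mean 545 ± 21.1). Inhibitors of the cycle were measured beside them: Cdkn2d (535 ± 110.2), Txnip (1945 ± 287) and Ndn, the growth suppressor necdin, were bright, and Cdkn1b, which encodes p27 (290.4 ± 52.5), moderate. Ndn had signals of 507, 478, 479.8, 290.0, 150.3 and 238 on arrays 1 to 6, lowest on array 5, and its mean without arrays 1 and 2 (289) was under the bright border. The mitosis list scored lowest on arrays 1 and 3 and highest on array 5 (mean log2 deviations of -0.20, -0.16 and 0.29). The share of cycling cells was not measured.

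Granule genes of granulocytes had bright signals, although lineage-positive cells had been removed. Of 20 measured 8 were bright (40%, against 10% of all genes), 10 moderate and 2 under the limit. Mpo, the peroxidase of primary granules, had signals of 2809, 2705, 4499, 5059, 4856 and 5467 on arrays 1 to 6 and was 1 of the 30 brightest genes (4233 ± 1186). The granule proteases Elane (lowest 1191, median 2529.9, highest 3136, mean 2271 ± 809.5), Ctsg (lowest 1130.2, median 2271, highest 2685, mean 2002 ± 629) and Prtn3 (lowest 1386, median 1612, highest 2329.7, mean 1749 ± 399) were bright in all animals. Markers of mature neutrophils were split. S100a8 (1643 ± 749) and S100a9 (857 ± 489.6) were bright, with S100a9 at 76.9, 742, 1089.9, 1574, 772 and 889, while Ly6g (7.42 ± 2.71) and Mmp9 (15.3 ± 7.87) were under the limit in all animals. Summed over the list, signals ran from 8577 to 20444, and its score was -1.05 on array 1, -0.31 on array 2 and -0.03 to 0.72 on arrays 3 to 6. Without arrays 1 and 2 the mean of S100a9 was 1081, that of Mpo was 4970.4 and 9 of 20 genes were bright.

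Monocyte genes and those of basophils and eosinophils also scored lowest on arrays 1 and 2. Of 22 genes of monocytes, macrophages and dendritic cells 6 were bright (27.3%, against 10% of all genes) and 16 lay above the limit (72.7%, against 57.7%). Ly6c2 (lowest 2762, median 3083, highest 4116, mean 3317 ± 617), the lysozyme Lyz2 (lowest 2093, median 3186, highest 3815, mean 3055 ± 706) and F13a1 (1045 ± 426) were highest. The macrophage receptors Mrc1 (24.5 ± 10.9) and Marco (23 ± 3.89) were under the limit. Of 17 genes of mast cells, basophils and eosinophils 10 lay above the limit (58.8%), close to the share of all genes (57.7%). Of the 17, 3 were bright (17.6%, against 10%), the eosinophil granule protein Prg2 and the basophil proteases Prss34 (983 ± 331) and Mcpt8 (528 ± 240.4). Prg2 had signals of 491, 697, 3145, 2486, 2320.1 and 2263, and Epx, the eosinophil peroxidase, 35.1, 54.6, 495, 275, 212 and 151. Both were lowest on arrays 1 and 2. The mast cell proteases Mcpt4 (2.7 ± 2.25), Tpsb2 (6.08 ± 3.13) and Cma1 (11.8 ± 4.75) were under the limit. Scores of this list were -0.95 and -0.51 on arrays 1 and 2 and 0.18 to 0.50 on the others, and its summed signal ran from 1984 to 5957. The part of other cells or of lineage priming in stem cells in these signals was not tested.

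**Figure D5:**
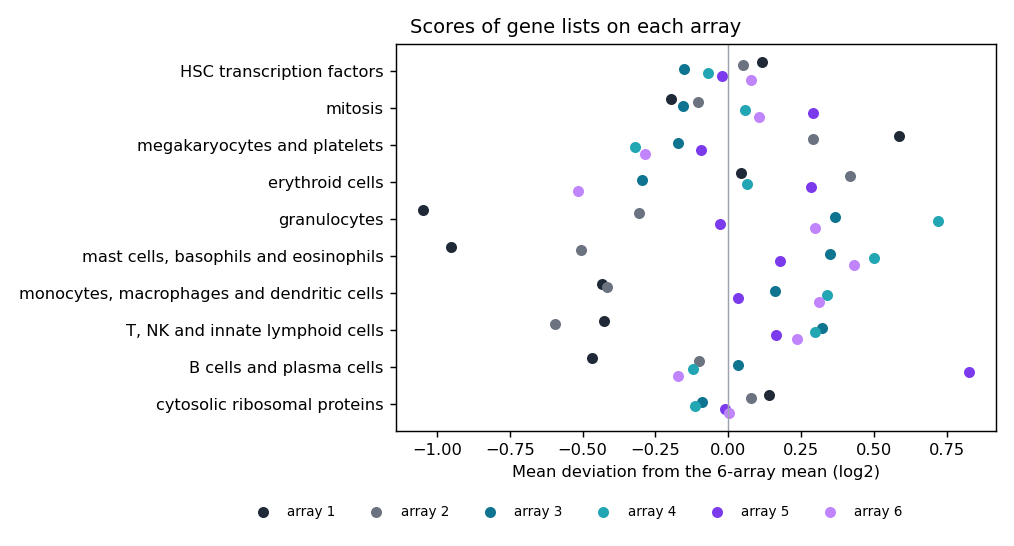
Score of 9 gene lists and 1 family on each array (horizontal axis, the mean deviation of members above the limit from their 6-array mean, on the log2 scale), one point per animal. Arrays 1 and 2 have the 2 lowest scores for granulocyte, monocyte, basophil and T and NK lists and the 2 highest for megakaryocytes, while array 5 has the highest B cell score at 0.83.

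Megakaryocyte genes had the opposite order. Of 19 measured 6 were bright (31.6%, against 10% of all genes), 9 moderate and 4 under the limit. Vwf, the platelet adhesion protein known to mark platelet-biased HSCs, had signals of 957, 790.3, 666, 495, 299.9 and 531 on arrays 1 to 6 (623 ± 233), and Selp, P-selectin, 597, 560.2, 414, 356, 214 and 329. Itga2b, the CD41 chain, was moderate (lowest 166, median 224, highest 477, mean 267 ± 121) and highest on array 1. The scores were 0.59 and 0.29 on arrays 1 and 2 and -0.32 to -0.10 on arrays 3 to 6. Without arrays 1 and 2 the means of Vwf and Selp were 498 and 328, both still bright. Tubb1 (26.6 ± 14) and Gp6 (23.4 ± 5.97), genes of mature platelets, were under the limit.

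Of 36 genes known to rise in HSCs with age 14 were bright (38.9%, against 10% of all genes), 21 moderate and 1 under the limit. The bright ones included the metallothioneins above, Mllt3, a self-renewal factor (888 ± 142), the retinal dehydrogenase Aldh1a1 (lowest 618, median 776, highest 1227, mean 869 ± 276) and Clu, clusterin (lowest 207, median 376, highest 713, mean 445 ± 210.4). Without arrays 1 and 2 the means of Aldh1a1 and Clu were 697 and 316. The scores of the list ran from -0.32 on array 5 to 0.32 on array 1, so animals of one age and genotype differed in them. Vwf, Selp and Slamf1 are in this list as well, and it shares those genes with the lists of megakaryocytes and of the gate.

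Of 12 red cell genes measured 11 were above the limit (91.7%, against 57.7% of all genes) and 2 bright (16.7%, against 10%), the carbonic anhydrases Car1 (lowest 745, median 1291, highest 2065, mean 1334 ± 512) and Car2 (lowest 1221, median 1628, highest 2502, mean 1781 ± 478), and Rhag (95.2 ± 48.7) and Rhd (88.6 ± 50.6), Rh proteins of the red cell membrane, were moderate. Car1 was highest on array 2 and lowest on array 6, as was the score (0.42 and -0.52). Probe sets shared by several adult beta-globin genes had means of 161 ± 62.6 to 678 ± 321, and those shared by the alpha-globin genes 297 ± 106 and 311 ± 163.

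Genes of B cells and plasma cells were above the limit in 9 of 20 cases (45%, against 57.7% of all genes). Of the 20, 2 were bright, 7 moderate and 11 under the limit, the surface protein Ms4a1 (CD20, 11.4 ± 4.0) and the surrogate light chain Vpreb1 (17.2 ± 6.08) among the last. The bright ones were Jchain (lowest 473, median 807, highest 1285, mean 802 ± 294), which joins antibody chains, and Xbp1 (lowest 359.8, median 634, highest 802, mean 610.3 ± 159), a factor of secretory cells. Both are known from plasma cells, and the part of such cells in these signals was not tested. Array 5 had the highest signals of Jchain, of the B cell receptor chain Cd79a (82.2, 69.7, 63.5, 45.1, 204 and 55.6) and of Sdc1, CD138 of plasma cells (14.9, 48, 86, 58.2, 231 and 51.8), and a list score of 0.83 where the others lay between -0.47 and 0.03.

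Immunoglobulin probe sets were among the brightest and the most variable of all. Igkv4-70, a kappa variable segment, had signals of 6502, 38558, 12214, 16678, 16678 and 16678 on arrays 1 to 6 and the highest mean of all genes. Ighg3, a heavy chain constant region, had 25, 2.8, 16678, 38558, 38558 and 7489.5, at or under the limit on arrays 1 and 2 and among the highest signals of the array on arrays 3 to 6. Igkv15-103 was at 55.8, 12214, 10145, 4522, 3520.4 and 3227, low on array 1 alone, and Igkv4-91 at 11.8, 6.1, 1189, 3.9, 7.4 and 1219, high on arrays 3 and 6 alone. Ighm, the mu heavy chain, was high in all animals (lowest 3254, median 6111, highest 6972, mean 5513 ± 1403), but its 5 probe sets reached down to a mean of 99.5. The same top value, 38557.6, stands on 3 arrays at these genes, while the highest value was 16677.8 on arrays 3 and 6 and 8702.1 on array 1. Quantile normalization makes values recur between arrays, so differences between these animals at the top of the scale are not resolved. Segments of one family share sequence, so single segments cannot be told apart with certainty. The SDs on the log2 scale were 5.02 for Ighg3 and 2.70 for Igkv15-103, against a median of 0.25 over bright genes.

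Of 22 genes of T, NK and innate lymphoid cells 13 lay above the limit (59.1%), close to the share of all genes (57.7%). Of the 22, 1, the granule protein Nkg7, was bright, with signals of 357, 242, 696, 628, 703 and 753, and 9 were under the limit, Cd4 (6.38 ± 4.55) and Cd8b1 (19.9 ± 13.9, and 28 without arrays 1 and 2, just over the limit) among them. Cd3e was above the limit in 4 of 6 animals (45 ± 29). The scores were lowest on arrays 1 and 2, at -0.43 and -0.59.
Of 12 genes of early lymphoid priming 4 were bright (33.3%, against 10% of all genes) and 2 under the limit. Besides Ighm, Ikzf1 and Tcf3 this was Mef2c (548 ± 57.3), and Dntt, the terminal transferase of lymphoid progenitors, was moderate (lowest 62.7, median 87.9, highest 183, mean 103 ± 48.2).

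Of 22 endothelial genes 20 lay above the limit (90.9%, against 57.7% of all genes) and 2 were bright (9.09%, against 10%). The bright ones were Eng, also in the list of HSC surface proteins, and Vwf, also in that of megakaryocytes, and Cdh5, the endothelial cadherin, was at 62.8 ± 52.4. Of 20 genes of stromal, bone and fat cells 0 were bright and 10 under the limit, among them Bglap, the osteocalcin of bone (12.6 ± 3.72), and the collagen genes Col1a1 (49.4 ± 3.36) and Col1a2 (86 ± 33.3) were moderate. Of the stromal list 50% lay above the limit. The part of endothelial or stromal cells in these signals was not tested.

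The spread between the 6 animals was small for most genes. The median SD on the log2(signal + 16) scale was 0.25 over bright genes, 0.28 over moderate ones and 0.20 under the limit, where the offset compresses differences. Among bright genes, 10% had an SD under 0.13 and 10% one over 0.49. The steadiest included Txn1, thioredoxin (lowest 1532, median 1571, highest 1633, mean 1581 ± 39.6, SD 0.04), Idh2 (549.6 ± 17.7), Psmb7 (984 ± 33.7), Pfn1 (3667 ± 126) and Arf5 (1251 ± 34.3), all of the basic machinery, and Cdk1.

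The 10 most variable bright genes included 3 immunoglobulin probe sets, Ighg3, Igkv15-103 and Igkv4-91. Another 4, Prg2, S100a9, Il6ra and Ifitm6 (78.3, 119.6, 490.2, 584, 169 and 456 on arrays 1 to 6), are known from myeloid cells and were lowest on arrays 1 and 2, with AB124611 (49, 133, 286, 506, 882 and 313) and Gm21370 (96.2, 72.3, 534, 440.1, 351 and 533) lowest on the same arrays. The last, 5830444B04Rik, had 1713, 209.9, 257, 239, 1762 and 1913, high on arrays 1, 5 and 6 and low on arrays 2, 3 and 4, with no animal between.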

How the data were processed

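Gene expression in LT-HSCs of 6 AHRFX mice was read from 1 table of all 22 arrays, of which only these 6 columns were used. The authors deposited probe set intensities on a linear scale, made with the IterPLIER algorithm (background-subtracted, quantile-normalized signals). The labels name Affymetrix Expression Console, while its version and any filter on probe sets were not given in the sources used here. Of 26688 probe sets, 23321 had 1 gene symbol in the platform annotation, 1802 had several and 1565 none. Probe sets with several symbols were left out, and of different probe sets of a gene (1053 genes) the one with the highest mean was used; in 258 of these genes another probe set lay at or under the limit. No covariate and no comparison between groups was used. The number of arrays limits the precision, and the spread given is that between 6 animals.

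Classes were computed with python 3.11.15, numpy 2.4.6 and pandas 2.3.3 and tested on simulated data. Levels were placed against 45 gene lists (1130 of 1240 listed genes were measured) and 37 families matched by symbol. Members and lists were chosen with earlier results of these data known. Spread was taken on log2(signal + 16). A list score is the mean deviation, on that scale, of members above the limit from their mean over the arrays. Genes named are the markers and gate genes, the 30 with the highest mean, all AHR pathway genes, the defining and up to 6 highest members of each list and its first 4 at or under the limit, the 10 most and least variable bright genes and up to 4 of each family; the genes at the class borders, Tnfrsf1a and Olfr782 were named for their place. Promoters came from RefSeq (GRCm38.p6), matched by gene ID, for protein-coding genes alone.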

Additional observations from a re-analysis of the deposited data

Results flagged for a closer look

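Of 212 genes and lineage scores given above or among the other observations, 15 had 1 array set apart from the other 5 by more than Dixon's 95% critical value for 6 samples, on the log2(signal + 16) scale for genes. Chance alone sets apart about 1 in 20. They lay on array 1 (4), array 5 (4), array 3 (3) and arrays 2 and 4 (2 each), and on array 6 in 0 cases.

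Array 1 was low for S100a9, the calprotectin subunit of neutrophils, at 76.9 (others 742 to 1574), for Igkv15-103 at 55.8 (others 3227 to 12214), and for the niche chemokine Cxcl12 at 86 (others 204 to 277), and high for the receptor Calcrl at 855 (others 506 to 603). Array 5 was high for the B cell receptor chain Cd79a at 204 (others 45.1 to 82.2) and low for the Toll-like receptor Tlr4 at 131 (others 173 to 194), for Ifitm3 at 2438 (others 2834 to 3059) and for Arf5 at 1185 (others 1247 to 1281), a gene that was nevertheless among the least variable.

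Array 4 was high for the AHR target Scin at 132 (others 14.8 to 27.2) and low for the lymphoid factor Mef2c at 439 (others 544 to 605). Array 3 was low for the AHR target Tiparp at 25.6 (others 54.2 to 70.4) and for osteocalcin, Bglap, at 5.6 (others 12.5 to 16.4), where all animals were under the limit, and high for the small nucleolar RNA Snord49b at 910.0 (others 61.2 to 134). Array 2 was high for the replication clamp Pcna at 2162 (others 1693 to 1821) and low for pyruvate kinase Pkm at 1627 (others 1889 to 2016).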

How the results depend on the processing

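The bright class changed little with the processing, and the limit mattered for the rest. Leaving out each array in turn gave 12549 to 12881 genes above the limit and shared 2152 to 2171 of the 2203 bright genes, and without arrays 1 and 2 the values were 12989 and 2108. A limit at the 99th percentile (67.5) left 7878 genes above it and 14147 at or under it. A limit from keratin-associated proteins and beta-defensins (54.8) left 8848, and asking every array to pass its own limit 9940. A bright class of the top 5% held 1102 genes. The median, the mean of log2 values and another quantile normalization shared 2153 to 2201 of the bright genes, and the lowest probe set of each gene 2051. Of 2880 values of lists, families and markers under these alternatives 157 moved by over 1.5 times, or for a marker by over 1 SD. The total includes values that could not move, since a changed limit leaves bright counts as they were and a changed bright class the counts above the limit. Of 82 counts above the limit, 42 moved with the limit of 67.5, 38 with that of 54.8 and 25 with each array's own limit. Of 82 bright counts, 34 moved with the top 5%. Among the markers 0 crossed the limit. The median SD of bright genes was 0.22 without arrays 1 and 2 and 0.26 with an offset of 1. Moderate genes near the limit cannot be told from background. No paired analysis was possible because no groups were compared.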

Other observations

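Other families add detail to the levels above. The solute carriers had 22 of 319 members bright (6.9%, against 10% of all genes) and 58.0% above the limit (against 57.7%). They were led by the mitochondrial phosphate carrier Slc25a3 (1313 ± 129), with Slc14a1, the urea transporter of red cells, also bright (798 ± 180.0). Of 58 Rab GTPases of vesicle traffic 15 were bright, Rab1a highest (1966 ± 122), and of 27 E2 ubiquitin-conjugating enzymes 10, led by Ube2c, which acts in mitosis (1461 ± 207). Zinc finger genes of the Zfp series were mostly moderate, with 7 of 336 bright and 225 moderate. Ion channel families had few bright members. Of 86 potassium channels 1 was bright (1.16%, against 10% of all genes), Kcnn4, the calcium-activated channel of blood cells (384 ± 85.5), and 42 lay above the limit (48.8%, against 57.7%). Of 18 voltage-gated calcium and sodium channels 0 were bright and 4 lay above the limit (22.2%). Of 49 keratins 1 was bright, Krt18 (lowest 316, median 511, highest 641, mean 485 ± 149), a keratin of simple epithelia, in all 6 animals.

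Small RNA genes differed by kind. Of 467 probe sets of microRNA genes 7 were bright, 82 moderate and 378 at or under the limit, and the arrays do not separate a mature microRNA from its longer transcript. Of 73 small nucleolar RNAs 2 were bright and 42 above the limit (57.5%, where 57.7% of all genes were). Snord49b had signals of 112, 109.9, 910.0, 134, 76.4 and 61.2 on arrays 1 to 6, high on array 3 alone.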
